A study of Homo sapiens with 12 samples.

Results

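OE33 cells that had survived repeated acidified bile salts and then received a hairpin against APE1 were compared with OE33 cells that had received neither. The comparison was chosen by library name and uses 6 of the 12 RNA-sequencing libraries of the series, 3 per group. OE33 is an established epithelial line from a human oesophageal adenocarcinoma (EAC), and bile salts in acid are a laboratory stand-in for gastro-oesophageal reflux. The Parental group was untreated OE33. The shAPE1 group (rABS+shAPE1) had been exposed to a 200 µM bile salt cocktail at pH 5.5 for 20 minutes a day over 15 days, and the survivors were then stably transduced with an APE1-targeted shRNA. The groups between these end points each had 3 libraries. They were survivors of the same exposure without a hairpin (rABS), and survivors carrying a non-targeting hairpin (shCtrl). The study text calls the 3 libraries of a group independent biological replicates. Parental cells were not described as transduced or mock-treated, and the labels name 1 hairpin against APE1, so exposure, selection, transduction and the hairpin cannot be told apart in shAPE1 against Parental alone. The rABS and shCtrl libraries were therefore used to place each gene: back at the Parental level with APE1 low, still changed, or different with the APE1 hairpin alone.

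APE1, encoded by APEX1, cuts the DNA backbone at sites that have lost a base during base excision repair, and through a separate domain it keeps transcription factors such as AP-1 in a reduced, DNA-binding state. Refluxed bile salts in acid damage DNA and burden the folding and redox systems of oesophageal cells. Among the programmes followed here, the integrated stress response raises amino acid synthesis and transport genes through the factor ATF4. E2F factors drive the genes of DNA replication as cells enter S phase. Type I interferon signalling raises antiviral genes, and can be set off by nucleic acid outside its usual compartment.

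Library totals ran from 15736087 to 23010377 counts, and within-group correlations of log2 CPM (TMM-scaled counts over library size) were at least 0.9873. Replicate 2 stood somewhat apart in both groups. Chi-square per degree of freedom between replicate counts was 12.2 and 12.7 for pairs with Parental replicate 2, and 5.53 without it. In shAPE1 it was 12.7 and 12.9 for pairs with replicate 2, and 3.05 without it. Mitochondrial genes held 1.896 to 2.748% of counts in Parental and 3.131 to 4.22% in shAPE1, a difference that moved with the groups and whose part in the results was not tested. Columnar epithelial markers were as the label has it: 12 of 12 passed the filter on low counts, and they summed to 17400 to 21000 CPM in Parental and 14800 to 15700 CPM in shAPE1. Marker values in this paragraph are CPM on library totals without TMM scaling. Of 10 fibroblast markers 1 passed the filter, with sums of 20.9 to 27.1 against 7.5 to 8.36 CPM and LUM, PDGFRA and POSTN at 0 in all 12 libraries. Nearly all of that sum was COL1A1, at 27.0, 20.9 and 23.8 CPM in Parental and 7.34, 8.19 and 7.23 CPM in shAPE1. Of 12 leukocyte markers 5 passed, with sums of 6.95 to 9.53 against 12.1 to 14.6 CPM and CD3D and MS4A1 at 0. Of 8 endothelial markers 2 passed, with sums of 18.6 to 21.3 against 13.7 to 16.9 CPM. Most of it was ESAM, at 18.1, 20.5 and 17.9 CPM in Parental and 16.4, 16.3 and 12.9 CPM in shAPE1. In bulk RNA, fewer cells that express a gene and less RNA per cell cannot be told apart.

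APEX1 (ENSG00000100823, chr14:20455191-20457772, plus strand, GRCh38) was at 52.9, 54.3 and 56.9 CPM in the Parental libraries and at 4.42, 4.50 and 5.88 CPM in the shAPE1 libraries. The rABS libraries held 81.8, 84.5 and 79.9 CPM and the shCtrl libraries 62.0, 56.5 and 60.9 CPM. All 3 shAPE1 libraries lay below every other library, each on 80 to 94 counts. The mean went from 54.7 ± 1.99 to 4.93 ± 0.819 CPM (SD, n = 3 each), 11.2-fold lower (log2 -3.48, SE 0.112, adjusted p = 4.41e-23 by edgeR's quasi-likelihood test with Benjamini-Hochberg adjustment). An exact two-sided permutation test over the 6 libraries gave p = 0.1, the smallest that 3 against 3 allows with 20 arrangements. So APEX1 mRNA in the shAPE1 group was below the untreated level, and not only below that of the other survivors.

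**Figure D1:**
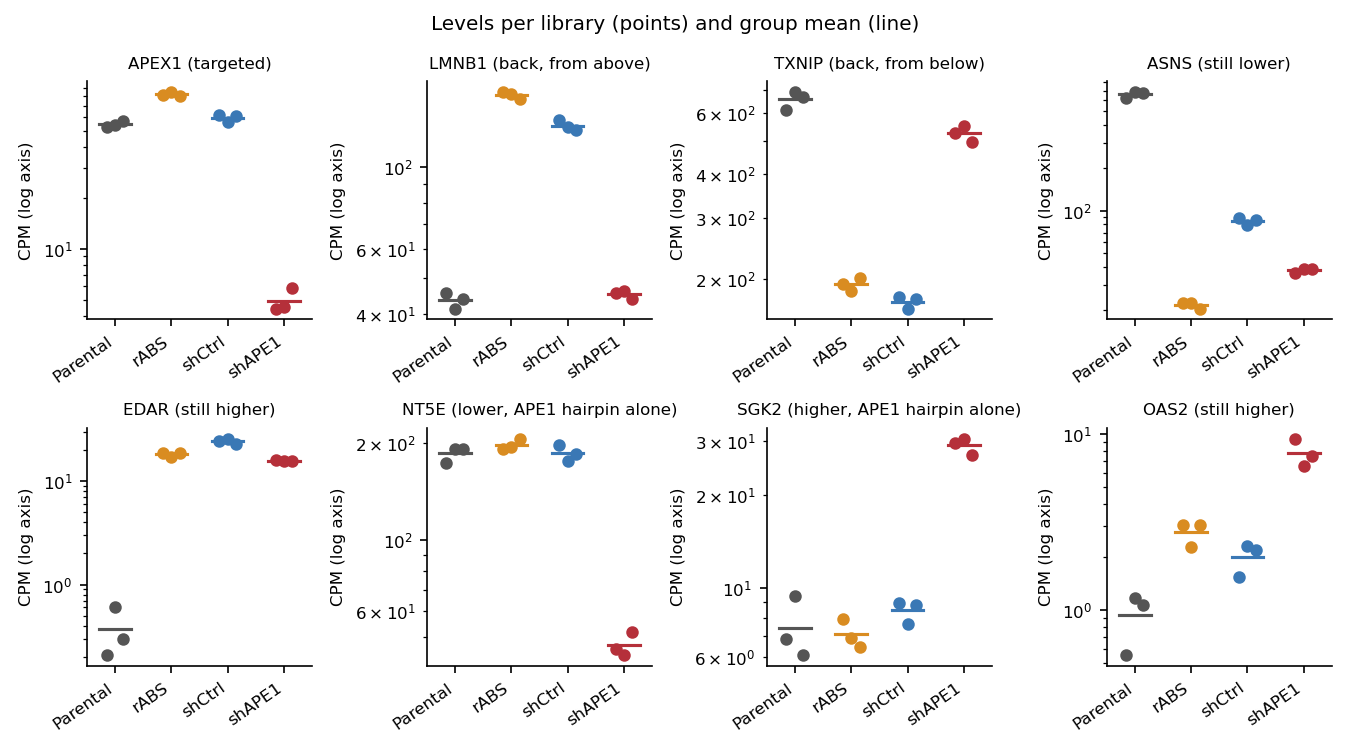
Library values (CPM, log axis) of APEX1 and of genes from each pattern in the 4 groups, 3 points per group, each point a library and each line a group mean. APEX1 sits between 4.42 and 5.88 CPM in shAPE1 and at 52.9 CPM or more in the other groups.

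Relative to Parental, 4139 of 15805 genes tested were higher in shAPE1 (26.2%) and 4344 were lower (27.5%), so 53.7% passed the test (adjusted p under 0.05) in either direction. At a fitted fold of at least 2, 1181 were higher (7.47%) and 1170 lower (7.40%). The median log2 difference over all genes tested was 0.00. From the same Parental libraries, 59.8% of genes passed in rABS and 53.1% in shCtrl, and 36.6% of genes passed in shAPE1 against shCtrl and 50% (7896 genes) in shAPE1 against rABS. These comparisons share libraries, so their counts are not independent of each other.

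The largest falls from Parental, among genes at a mean of 5 CPM or more in either group, were those of INHBE, THBD, IL1A, MMP1, ULBP1, PHGDH, ADM2 and FOS. INHBE, an activin subunit raised by the integrated stress response, was at 3.88, 4.68 and 6.49 CPM in Parental and 0.10, 0 and 0.13 CPM in shAPE1 (log2 -5.95). Its shAPE1 value rests on 4 counts in all, so the size of the fall is uncertain (95% interval of log2, -7.60 to -4.31). THBD, the thrombin receptor thrombomodulin, was at 1350, 1211 and 1311 CPM in Parental and 31.0, 39.0 and 32.5 CPM in shAPE1. No THBD value of one group came near the other, and the difference was 37.8-fold (log2 -5.24, adjusted p = 1.04e-29). IL1A, the cytokine interleukin-1 alpha, fell from 204, 248 and 232 CPM to 6.38, 5.79 and 8.13 CPM (33.9-fold). MMP1, a collagenase, had log2 -4.60, and ULBP1, a stress ligand of the NKG2D receptor, log2 -4.59. PHGDH, the first enzyme of serine synthesis, had log2 -4.48, ADM2, an adrenomedullin-family peptide, -4.43, and FOS, a subunit of AP-1, -4.18.

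On the other side, SLC2A3, the glucose transporter GLUT3, was at 0.21, 0.09 and 0 CPM in Parental and 28.8, 27.9 and 27.1 CPM in shAPE1 (log2 8.10). Its rABS libraries held 2.34, 1.75 and 2.62 CPM and its shCtrl libraries 7.61, 6.92 and 9.21 CPM. The Parental value rested on 5 counts in all, so the size of this fold is uncertain (95% interval of log2, 6.74 to 9.47), while every shAPE1 library lay above every other library. INSR, the insulin receptor, had log2 6.08, also on 5 Parental counts. LINC02474, a long non-coding RNA, had no count in Parental and up to 14.4 CPM in shAPE1. Taking 3 counts over the Parental group as its floor, it was at least 233-fold higher. EDAR, a receptor of the tumour necrosis factor family, was at 0.21, 0.61 and 0.29 CPM in Parental and 15.9, 15.5 and 15.6 CPM in shAPE1 (38.9-fold). Its rABS and shCtrl libraries lay above those of shAPE1, between 17.3 and 25.8 CPM. The plasminogen activator inhibitor SERPINB2 had log2 4.86, the glucuronosyltransferase UGT2B7 4.78, the chemokine CCL5 4.54 and the anion transporter SLC26A9 4.46.

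Most genes that were at least 2-fold from Parental in both rABS and shCtrl were still at least 2-fold away with APE1 low. Genes called in rABS and in shCtrl at 2-fold or more in one direction numbered 886 above Parental and 632 below it. In rABS, regardless of shCtrl, 1602 genes were called at least 2-fold higher and 1472 lower. Counted over those, the 552 and 435 genes given next are a smaller share. These contrasts all use the same Parental libraries. Of the 886, 552 (62.3%) were still at least 2-fold higher in shAPE1, and of the 632, 435 (68.8%) were still at least 2-fold lower. A further 179 (20.2%) and 118 (18.7%) were called in the same comparison under 2-fold, and 123 (13.9%) and 55 (8.70%) were not called but had an interval that reached past 1.5-fold. Back at the Parental level were 30 (3.39%) and 22 (3.48%). A gene counted as back where shAPE1 was also called against shCtrl in the opposite direction and the 95% interval of shAPE1 over Parental lay within 1.5-fold either way. With a margin of 2-fold in place of 1.5-fold, 209 genes would be back, and with a narrower margin 8. Against shCtrl, shAPE1 was nearer Parental for 300 of the 886 and farther for 96, and for the 632 nearer for 183 and farther for 114. Both the choice of these genes and that count use the shCtrl libraries. Against rABS, which was also used to choose them, the counts were 427 nearer and 97 farther of the 886, and 277 and 78 of the 632.

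**Figure D2:**
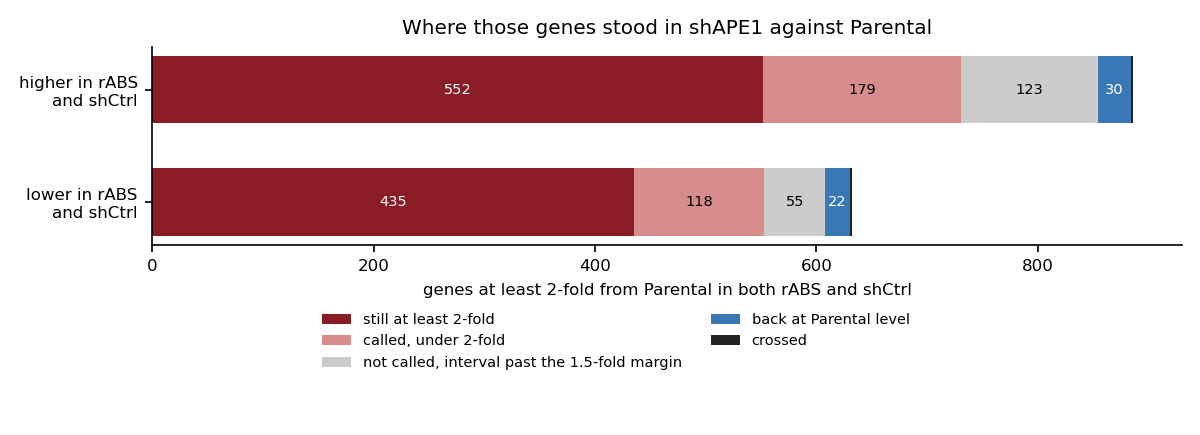
Genes at least 2-fold above (886) or below (632) Parental in both rABS and shCtrl, split by where they stood in shAPE1, as numbers of genes along each bar. Still at least 2-fold from Parental is the longest piece of each bar, 552 and 435 genes, and back at the Parental level are 30 and 22.

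The genes back from above numbered 30 (0.190% of genes tested), 2 of them on the replication list and none on the mitosis list. The mitosis list does not hold every gene of chromosome segregation. DSN1 and CENPU, of the kinetochore, and ERCC6L, a mitotic helicase, were back at log2 0.13, 0.07 and 0.21. These were singled out after their values were seen. LMNB1, lamin B1 of the nuclear lamina, was at 45.7, 41.4 and 43.9 CPM in Parental, 159, 157 and 152 CPM in rABS, 134, 128 and 126 CPM in shCtrl and 45.5, 46.1 and 44.1 CPM in shAPE1. The shAPE1 libraries overlapped those of Parental and lay below all 6 other survivor libraries (log2 0.05, 95% interval -0.10 to 0.20). ESCO2, an acetyltransferase that secures sister chromatid cohesion, held 10.9, 12.9 and 11.7 CPM in Parental, 34.2, 33.3 and 39.1 CPM in rABS, 36.8, 28.5 and 32.8 CPM in shCtrl and 10.1, 8.95 and 12.8 CPM in shAPE1. Its Parental and shAPE1 libraries overlapped. PLK2, a polo-like kinase, was still called, at 58.5, 63.1 and 59.5 CPM in Parental and 73.4, 66.1 and 76.5 CPM in shAPE1 against 142.8 CPM or more in rABS and shCtrl (log2 0.25, adjusted p = 0.00478). SERTAD4, a SERTA-domain protein, had log2 -0.06 and SLC39A8, a zinc and manganese importer, 0.14.

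MCM7, a subunit of the replicative helicase, went from 291, 251 and 285 CPM in Parental to 912, 970 and 872 CPM in rABS, 612, 631 and 629 CPM in shCtrl and 338, 333 and 365 CPM in shAPE1. Its shAPE1 libraries lay just above the Parental ones without overlap, and it was both inside the 1.5-fold margin and called (log2 0.33, adjusted p = 0.000128). Among members that the rule for named genes did not pick and that were singled out after their values were seen, TYMS, which makes thymidylate, was at log2 0.06, BLM, a helicase of recombination, at 0.03, MSH6, of mismatch repair, at 0.36, SLBP, which binds histone mRNA, at 0.24, and HMGA2, a chromatin protein, at 0.22. Of the 30, 10 were back and still called. At the edge of the margin, RIF1, which guards broken ends and replication timing, was inside with an interval of 0.23 to 0.58, and DSCC1, a clamp-loader subunit, was outside with 0.05 to 0.59.

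The genes back from below numbered 22 (0.139%). TXNIP, an inhibitor of thioredoxin and of glucose uptake, was at 614, 688 and 667 CPM in Parental, 194, 186 and 202 CPM in rABS, 178, 165 and 175 CPM in shCtrl and 526, 550 and 496 CPM in shAPE1. Its shAPE1 libraries remained below those of Parental without overlap (log2 -0.32, adjusted p = 9.24e-05). CEACAM5, the carcinoembryonic antigen, was at 208, 218 and 214 CPM in Parental, 63.1, 55.7 and 59.5 CPM in rABS, 82.0, 81.5 and 78.9 CPM in shCtrl and 169, 209 and 158 CPM in shAPE1 (log2 -0.26, adjusted p = 0.00632, and 0.0812 without shAPE1 replicate 3). FTH1, the ferritin heavy chain that stores iron, held 3297, 2824 and 3343 CPM in Parental and 2930, 3418 and 2818 CPM in shAPE1 against 1278 to 1587 CPM in rABS and shCtrl (log2 -0.05). FTH1 has many pseudogenes, so its reads are uncertain. NEURL3, a ubiquitin ligase, had log2 -0.03, ATG9B, of autophagosome formation, -0.28, MKNK2, a kinase of the cap-binding factor, -0.31, and TP53INP2, an autophagy and transcription cofactor, -0.35. Of the 22, 10 were called. ADA, adenosine deaminase, sat just inside the margin at -0.58 to -0.21.

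A separate set was within the margin with either hairpin: 25 genes were at least 2-fold higher (0.158%) and 13 at least 2-fold lower (0.0823%) in rABS, with the intervals of both shCtrl and shAPE1 inside 1.5-fold of Parental. Inside that margin, 12 of the 25 and 8 of the 13 were still called in shCtrl or shAPE1. Of the 25, 9 were histones, the spools on which DNA is wound. H1-3, a linker histone, was at 206, 188 and 207 CPM in Parental, 482, 561 and 520 CPM in rABS, 259, 212 and 228 CPM in shCtrl and 168, 171 and 160 CPM in shAPE1. Its rABS libraries stood apart above, and shAPE1 lay just under Parental. H2BC18, H2BC9, H2BC13, H2AC12 and H4C1 were also named by the rule, at log2 -0.31 to -0.09 in shAPE1 over Parental. Most histone mRNAs lack a poly(A) tail and several are near-identical, so in poly(A)-selected libraries their levels are uncertain. Among the low genes, MUC3A, a membrane mucin, was at 39.2, 41.4 and 39.7 CPM in Parental, 11.1, 8.96 and 10.1 CPM in rABS, 38.6, 47.6 and 45.9 CPM in shCtrl and 43.6, 54.7 and 45.6 CPM in shAPE1. Only its rABS libraries were low. GSDMB, a gasdermin, IDH1, the cytosolic isocitrate dehydrogenase, GABBR1, a GABA receptor subunit, TEF, a clock-output transcription factor, and SNCG, gamma-synuclein, followed it.

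**Figure D3:**
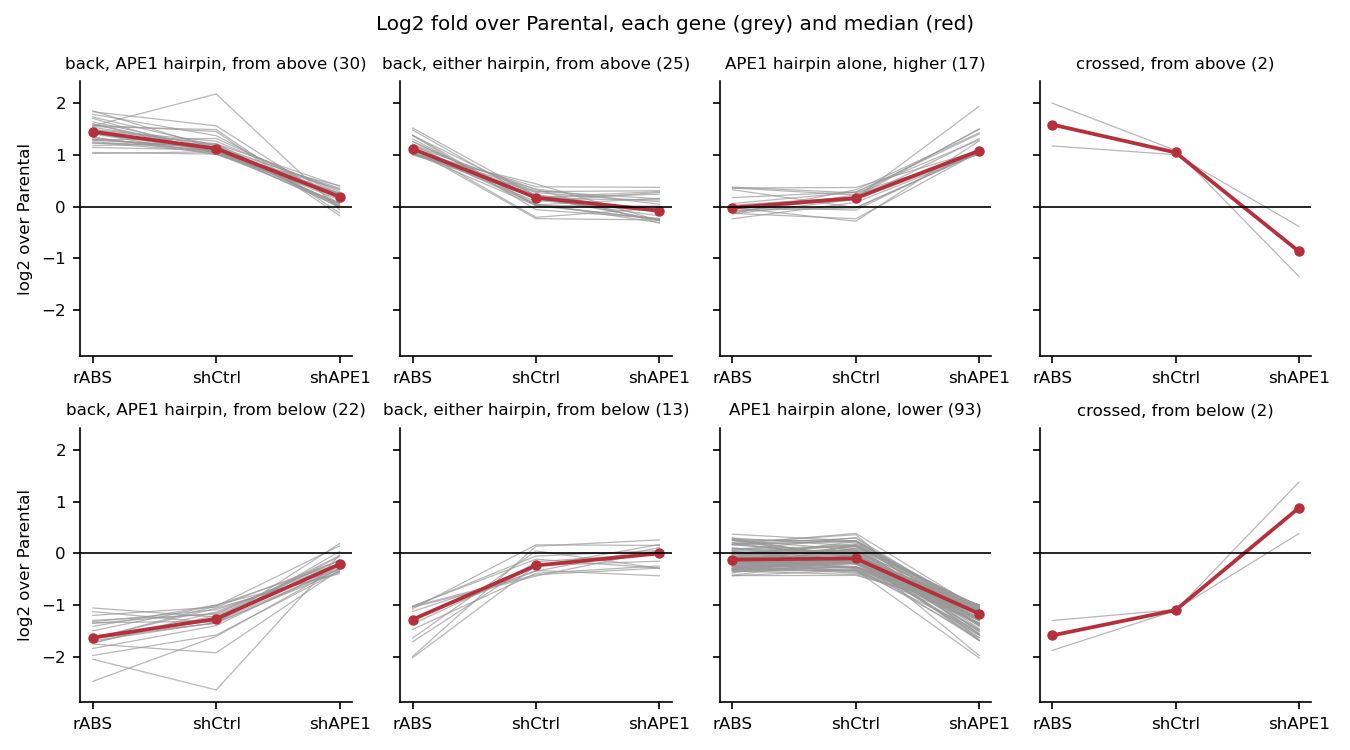
Fitted log2 difference from Parental in rABS, shCtrl and shAPE1 for the genes of each pattern other than still changed, grey lines for genes and red lines for the median. Genes back with the APE1 hairpin go from a median of 1.45 in rABS to 0.19 in shAPE1 from above and from -1.63 to -0.21 from below. The rules that define the patterns largely set these medians.

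The 552 genes still higher (3.49% of genes tested) had median log2 2.00 in rABS, 1.81 in shCtrl and 1.81 in shAPE1, and the 435 still lower (2.75%) had -1.82, -1.59 and -1.71. Against shCtrl, 366 of the 552 were not called, 90 were nearer Parental and 96 farther from it. Of the 435, 275 were not called, 46 were nearer and 114 farther. The rule drops genes that came nearer than 2-fold and keeps those that moved farther, so it shapes these counts and medians. Without it, 300 of the 886 were nearer and 96 farther, and of the 632, 183 and 114. EDAR and UGT2B7 above and THBD and IL1A below are members.

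The amino acid arm of the integrated stress response was low in APE1-low survivors as in the other survivors. Of 36 tested genes, 34 fell and none rose, with 31 at 2-fold or more, and the median log2 was -2.22, beside 0.00 over all genes. The same list had medians of -2.10 in rABS and -1.77 in shCtrl, and 30 of its genes are among those still lower. ASNS, asparagine synthetase, was at 626, 682 and 672 CPM in Parental, 22.4, 22.4 and 20.5 CPM in rABS, 89.0, 78.7 and 85.8 CPM in shCtrl and 36.6, 38.7 and 38.6 CPM in shAPE1. Every survivor library lay below every Parental library, and shAPE1 lay between rABS and shCtrl (17.4-fold under Parental, adjusted p = 1.73e-28). PHGDH was at 109, 91.5 and 115 CPM in Parental, 8.88, 10.2 and 8.07 CPM in rABS, 17.6, 16.7 and 16.6 CPM in shCtrl and 4.52, 4.56 and 5.06 CPM in shAPE1, the lowest group of the 4. GDF15, a stress cytokine, had log2 -3.82, TRIB3, a pseudokinase that curbs AKT, -3.42 and DDIT4, an inhibitor of mTORC1, -3.21. Against shCtrl, 24 of the 36 were lower and 2 higher, beside 2976 lower and 2808 higher of all 15805 genes tested.

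The promoter of ASNS is shown because its group fell together. The letters TGATGNAA, the core of the element bound by C/EBP-ATF dimers, were sought on both strands in RefSeq promoters of GRCh38.p14, from 250 bases before to 50 after the start. The match is in capitals (chr7:97872359-97872658, minus strand).
ASNS: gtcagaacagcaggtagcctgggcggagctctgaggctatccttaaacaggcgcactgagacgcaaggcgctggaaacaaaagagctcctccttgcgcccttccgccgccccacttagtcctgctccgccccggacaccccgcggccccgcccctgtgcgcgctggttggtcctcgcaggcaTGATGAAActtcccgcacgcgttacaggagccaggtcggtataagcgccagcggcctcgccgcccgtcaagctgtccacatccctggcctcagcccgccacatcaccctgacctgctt
Of 30 promoters of this list that matched, 9 (30%) held these letters, beside 1.67% of promoters of genes tested, 2.85% of all 18961 promoters and 5.37% of those of the still-lower genes. A match is a description of letters, not of a bound site. Each motif here was sought on its own, without regard to overlap with the others.

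DNA replication genes stood between the other survivors and untreated cells. Of 41 tested, 22 rose against Parental, 5 fell and 14 were not called, with a median log2 of 0.33. The list's median was 1.64 in rABS and 0.98 in shCtrl. Against shCtrl, 39 of the 41 were lower in shAPE1 and none higher, beside 2976 lower and 2808 higher of all 15805 genes. PCNA, the sliding clamp, was at 79.0, 82.3 and 80.3 CPM in Parental, 447, 456 and 459 CPM in rABS, 286, 284 and 292 CPM in shCtrl and 138, 121 and 132 CPM in shAPE1. No library of one group overlapped another, and shAPE1 stood 1.62-fold above Parental (adjusted p = 1.39e-10). Other members were higher than Parental by more: FEN1, the flap endonuclease, at log2 1.66, GINS1, of the helicase complex, at 1.66, MCM6 at 1.65, MCM3 at 1.37 and MCM4 at 1.10, all helicase subunits. MCM5 (0.43), another, missed the margin at its upper edge.

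The promoter of MCM7 is shown because the gene returned inside the margin. TTCCCGC, the letters of a strong E2F site, were sought on both strands, and the match reads GCGGGAA on the strand printed (chr7:100101348-100101647, minus strand, GRCh38.p14).
MCM7: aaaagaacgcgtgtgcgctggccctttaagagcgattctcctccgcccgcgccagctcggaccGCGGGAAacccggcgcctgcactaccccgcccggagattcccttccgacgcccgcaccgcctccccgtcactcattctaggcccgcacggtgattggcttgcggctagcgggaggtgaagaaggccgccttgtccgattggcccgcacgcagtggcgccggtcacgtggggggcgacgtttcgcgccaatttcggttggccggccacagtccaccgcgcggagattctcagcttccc
The letters were in 15 of 36 matched promoters of the replication list (41.7%), in 7 of 23 of the genes back from above (30.4%), and in 9.70% of the still-higher genes. They were in 10.1% of the 11049 promoters of genes tested and in 7.96% of all promoters.

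Repair and mitosis lists had medians near that of all genes, with members on both sides. Over all genes tested 26.2% rose and 27.5% fell against Parental. List counts against Parental, here and below, are to be read beside those shares. Those against shCtrl are to be read beside 2808 higher and 2976 lower of 15805 genes. In base excision repair, the pathway of APE1 itself, 12 of 24 rose, 7 fell, APEX1 among them, and the median was 0.20. UNG, which removes uracil from DNA, had log2 1.02, and PARP1, which senses nicks, 0.88. In homologous recombination and the Fanconi pathway 10 of 28 rose and 7 fell (median 0.03). UBE2T, the conjugating enzyme of that pathway, had log2 1.13, FANCA, of its core complex, 0.82, RAD54L, a recombination motor, 0.78, and FANCE, of the core complex, -0.74. Among 17 end-joining and damage-signalling genes 6 rose and 4 fell (median 0.01). PRKDC, the DNA-dependent kinase that joins broken ends, was at 562, 611 and 551 CPM in Parental, 810, 760 and 862 CPM in rABS, 713, 628 and 686 CPM in shCtrl and 215, 200 and 216 CPM in shAPE1. Its shAPE1 libraries were the lowest 3 of the 12, 2.73-fold under Parental (adjusted p = 6.73e-18). ATR, the kinase of stalled forks, had log2 0.74, POLQ, the end-joining polymerase, 0.84 and DCLRE1C, the nuclease Artemis, -0.86. Of 32 mitosis genes, 10 rose and 9 fell (median 0.07), and MKI67, the proliferation marker Ki-67, was not called (log2 0.11, adjusted p = 0.167, and 0.0292 without Parental replicate 2). Against shCtrl, 27 of the 32 were lower and 2 higher.

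Interferon-response genes were higher than in any other group at the median of their list. Of 35 tested, 23 rose, 4 fell and 8 were not called, with a median log2 of 0.84 in shAPE1, 0.26 in rABS and 0.10 in shCtrl. Against shCtrl, 23 were higher and 1 lower. OAS2, which makes the messenger that activates RNase L, was at 0.55, 1.17 and 1.06 CPM in Parental, 3.02, 2.27 and 3.02 CPM in rABS, 1.53, 2.29 and 2.19 CPM in shCtrl and 9.34, 6.53 and 7.44 CPM in shAPE1 (8.09-fold). The shAPE1 libraries were the highest 3 of the 12. IFI27, a mitochondrial interferon-induced protein, had log2 3.55, SAMD9L, a translation inhibitor, 1.53, DDX60, an RNA helicase, 1.15 and OAS3 0.47. Among 16 nucleic acid sensing genes, 6 rose and 4 fell. DHX58, the receptor LGP2, had log2 2.04, SAMHD1, which breaks down deoxynucleotides, 1.63, MAVS, the adaptor of RNA sensing, 0.68, and IFI16, a nuclear DNA sensor, -1.90.

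The promoter of IFIT3 is shown because the gene met the size rule, given below, for genes higher with the APE1 hairpin alone. It was also called higher than Parental in shCtrl, at log2 0.28. GAAANNGAA, the core of the interferon-stimulated response element, was sought on both strands, and both matches lie on the strand opposite the one printed (chr10:89327747-89328046, plus strand, GRCh38.p14).
IFIT3: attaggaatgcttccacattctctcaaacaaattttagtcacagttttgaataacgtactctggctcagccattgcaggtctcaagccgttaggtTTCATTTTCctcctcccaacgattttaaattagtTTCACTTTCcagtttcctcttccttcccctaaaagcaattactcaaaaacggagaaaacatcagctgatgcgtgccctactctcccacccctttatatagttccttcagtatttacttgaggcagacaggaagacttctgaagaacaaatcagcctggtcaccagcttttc
Of 27 matched promoters of the interferon list 18 (66.7%) held the letters, beside 6.42% of promoters of genes tested and 7.41% of all promoters. So did 3 of 13 of the genes higher with the APE1 hairpin alone (23.1%) and 4 of 22 of those back from above with either hairpin (18.2%). None of 23 genes back from above and none of 17 back from below with the APE1 hairpin held them.

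Of 22 antigen presentation genes, 11 rose and 3 fell (median 0.34). CD74, the invariant chain of class II molecules, was at 5.54, 6.92 and 5.54 CPM in Parental and 101, 131 and 105 CPM in shAPE1 (log2 4.21), with no overlap. HLA-DRA, a class II chain, had log2 3.32, and the class I chains HLA-B 0.94 and HLA-F 0.88. Of 29 chemokines, cytokines and NF-kB genes, 15 rose and 10 fell (median 0.39). CCL5, a T cell attractant, went from 0.07, 0.33 and 0.47 CPM in Parental to 7.08, 7.20 and 7.25 CPM in shAPE1, with 0.76 to 1.05 CPM in rABS and shCtrl. Every shAPE1 library was above every other library. CXCL1, a neutrophil attractant, had log2 2.65 and IL32, a cytokine, 2.74. IL1B, the secreted interleukin-1, had -3.93 and LIF, a cytokine of the interleukin-6 family, -2.16.

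Genes that differed from Parental with the APE1 hairpin alone numbered 17 higher (0.108% of genes tested) and 93 lower (0.588%). They were at least 2-fold from Parental in shAPE1 and called the same way against shCtrl and rABS, while the intervals of rABS and shCtrl lay within 1.5-fold of Parental. Alone refers to this size rule: 9 of the 17 and 51 of the 93 were also called against Parental in rABS or shCtrl, inside that margin. IFIT3 is among the 9. Among those higher, SGK2, a serum-regulated kinase, was at 6.85, 9.40 and 6.07 CPM in Parental, 7.92, 6.92 and 6.45 CPM in rABS, 8.98, 7.64 and 8.81 CPM in shCtrl and 29.5, 30.4 and 26.9 CPM in shAPE1 (3.84-fold, adjusted p = 7.87e-14). The 9 other libraries overlapped and all lay below the 3 of shAPE1. IFIT3, an antiviral protein that binds its partner IFIT1, was at 9.34, 10.2 and 9.49 CPM in Parental, 10.9, 10.2 and 9.43 CPM in rABS, 11.4, 12.3 and 11.7 CPM in shCtrl and 27.2, 23.6 and 26.6 CPM in shAPE1 (2.65-fold). FAXDC2, a fatty acid hydroxylase family member, had log2 1.51, MYPN, a sarcomere protein, 1.5, GPR157, an orphan receptor, 1.43 and ST6GALNAC6, a sialyltransferase, 1.32.

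The 93 lower genes had a median log2 of -1.17 in shAPE1, -0.12 in rABS and -0.10 in shCtrl, medians that the rule for this pattern largely sets. NT5E, the cell surface nucleotidase CD73 that makes adenosine, was at 174, 192 and 192 CPM in Parental, 191, 195 and 207 CPM in rABS, 197, 177 and 185 CPM in shCtrl and 45.9, 43.9 and 51.8 CPM in shAPE1. The first 3 groups overlapped and shAPE1 lay apart, 3.95-fold under Parental (adjusted p = 1.78e-20). APAF1, the scaffold of the apoptosome, was at 49.7, 55.9 and 49.6 CPM in Parental, 40.8, 37.9 and 42.0 CPM in rABS, 46.5, 42.7 and 46.6 CPM in shCtrl and 16.5, 13.9 and 18.0 CPM in shAPE1 (log2 -1.68). LPGAT1, a lysophospholipid acyltransferase, had log2 -2.03, RAB23, a small GTPase of cilia signalling, -1.69, GOLT1B, of Golgi transport, -1.69, and CBFB, the partner subunit of RUNX factors, -1.68. HK1, hexokinase, was the member of the glycolysis list (-1.04). Members singled out after their values were seen were CDK6, a kinase of the G1 phase, at log2 -1.48, RBPJ, the DNA-binding factor of Notch signalling, at -1.63, NOTCH3, a Notch receptor, at -1.15, STAT3, a cytokine-activated factor, at -1.20, and LIG4, the ligase of end joining, at -1.31.

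The sequence TGCATTC was counted in the 3′ untranslated regions (UTRs) of each pattern. It was taken up because it had stood out earlier in fold changes of these same shAPE1 libraries, so its shares are not independent of the values that define the patterns, and they are a description with no test. It was read on the transcript strand in the longest 3′ UTR of at least 50 bases per gene (GENCODE 29). Of 91 such lower genes with a UTR, 42 (46.2%) held it, beside 13.3% of 12468 genes tested and 0 of 16 genes higher with the APE1 hairpin alone. Genes back from above with the APE1 hairpin held it in 11 of 29 (37.9%), and those back from below in 1 of 22 (4.55%). In genes back with either hairpin it was in 9.52% from above and 15.4% from below, and in the still-changed genes in 12.6% above and 15.2% below. Among all genes at least 2-fold lower than Parental 25.1% held it, and among those at least 2-fold higher 10.1%.

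UTR length and base content also differed between the patterns. The median UTR was 2326 bases in the genes lower with the APE1 hairpin alone, 1636 in those back from above and 1359 in all genes, and its GC content 36.9, 36.5 and 43.2%. Length did not follow the shares throughout. Genes higher with the APE1 hairpin alone had a median of 2094 bases, yet 0 of 16 held TGCATTC. Their GC content was 49.2%, and that of genes back from below 50.4%. In short UTRs (up to 802 bases) 16.7% of the lower genes, only 2 of 12, and 2.31% of all genes held TGCATTC. Middle ones (803 to 2152 bases) held it in 37.0% (10 of 27) and 9.38%, and long ones (from 2153 bases) in 57.7% (30 of 52) and 28.2%. APEX1, the hairpin's target, holds it as well, and the sequence of the hairpin was not used here. Sites are shown for APEX1, for 3 genes lower with the APE1 hairpin alone and for 3 back from above, so that the letters around the shared ones can be compared. The shared letters are in capitals, in GRCh38: APEX1 at chr14:20457579-20457607 (plus strand), APAF1 at chr12:98732666-98732694 (plus), RBPJ at chr4:26432493-26432521 (plus), CDK6 at chr7:92614408-92614436 (minus), LMNB1 at chr5:126836924-126836952 (plus), PLK2 at chr5:58454090-58454118 (minus) and TYMS at chr18:673479-673507 (plus).
APEX1: tcagagaaatcTGCATTCtatttctcatg
APAF1: ttgtgcagtatTGCATTCattacaaaagt
RBPJ: tgagatttggtTGCATTCagggttgtagg
CDK6: agagatgtgcaTGCATTCtatttagtctt
LMNB1: ctctattaaaaTGCATTCgttgtgttttt
PLK2: ggctggaaaagTGCATTCcttgttaataa
TYMS: aagaagtgttcTGCATTCgtccacgcttt
Whether these letters have a part in the level of any of these genes was not tested.

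**Figure D4:**
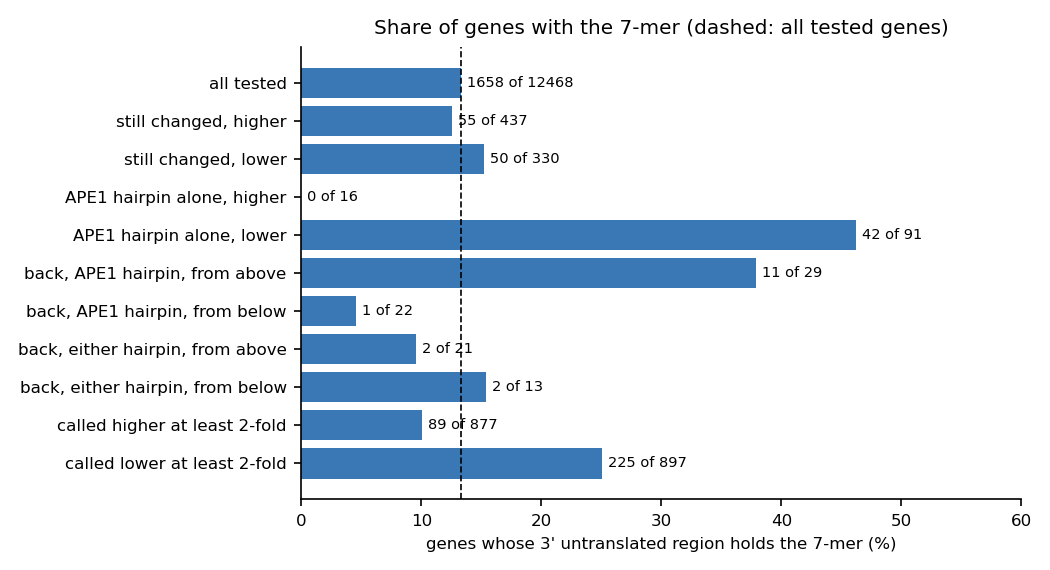
Percent of genes in each pattern whose 3′ UTR holds TGCATTC, with the number that hold it of the number with a UTR beside each bar, and a dashed line at 13.3% for all genes tested. Genes lower with the APE1 hairpin alone reach 46.2% and genes back from above 37.9%.

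Genes that crossed the Parental level were few, 2 from above and 2 from below (0.0127% of genes tested each). EPHB6, an ephrin receptor without kinase activity, was at 4.29, 4.45 and 5.07 CPM in Parental, 17.2, 19.3 and 19.0 CPM in rABS, 9.72, 9.67 and 10.1 CPM in shCtrl and 2.21, 1.35 and 1.81 CPM in shAPE1. Its groups did not overlap, and shAPE1 was 2.55-fold under Parental (adjusted p = 3.37e-07). RSAD2, the antiviral enzyme viperin, was at 0.69, 1.87 and 0.59 CPM in Parental, 0.28, 0.17 and 0.40 CPM in rABS, 0.26, 0.85 and 0.35 CPM in shCtrl and 3.67, 2.59 and 2.25 CPM in shAPE1 (2.60-fold above Parental, adjusted p = 0.00423). The shAPE1 libraries were above all others, at low counts. SPCS3, a signal peptidase subunit, crossed downward to log2 -0.38 and PPP1R3B, a glycogen-targeting subunit of a phosphatase, upward to 0.38. The call of PPP1R3B was lost without shAPE1 replicate 1 (log2 0.30, adjusted p = 0.056).

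Of 30 immediate early and MAPK feedback genes, 24 fell and 5 rose, with a median log2 of -0.97 in shAPE1, -0.42 in rABS and -0.73 in shCtrl. FOS was at 78.2, 74.9 and 73.5 CPM in Parental, 44.1, 47.5 and 43.1 CPM in rABS, 5.76, 6.87 and 6.87 CPM in shCtrl and 4.37, 3.66 and 4.44 CPM in shAPE1. Both hairpin groups lay far below rABS, and the larger step was between rABS and shCtrl. FOSB, a second AP-1 subunit, had log2 -3.54, EGR1, an early zinc-finger factor, -2.13, DUSP5, an ERK phosphatase, -2.22, and JUNB, another AP-1 subunit, -1.66. EGR1 was at -0.20 in rABS and -1.69 in shCtrl. Of 28 EGF family ligands and receptor kinases, 15 fell and 6 rose (median -0.31). AXL, a receptor kinase, was at 99.2, 89.0 and 94.5 CPM in Parental, 63.3, 58.2 and 61.0 CPM in rABS, 97.7, 106 and 104 CPM in shCtrl and 22.2, 21.6 and 21.7 CPM in shAPE1 (log2 -2.11). The shCtrl and Parental libraries overlapped, and shAPE1 lay below all others. EGFR had log2 -1.09, and its ligands HBEGF -2.78 and AREG -1.37.

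Antioxidant and p53 target genes were mostly low. Of 29 NRF2 and antioxidant genes, 19 fell and 5 rose (median -0.61, with -0.91 in rABS and -0.77 in shCtrl). TXNRD1, thioredoxin reductase, was at 1111, 1174 and 1196 CPM in Parental, 519, 541 and 542 CPM in rABS, 455, 441 and 455 CPM in shCtrl and 347, 316 and 339 CPM in shAPE1 (3.48-fold lower). Every group was below the one before it without overlap. SLC7A11, the cystine importer, had log2 -2.51, SRXN1, which repairs peroxiredoxins, -2.12, and NFE2L2, encoding NRF2, -1.33. Of 24 p53 targets, 14 fell and 4 rose (median -0.43, with -0.46 in rABS and -0.37 in shCtrl). CDKN1A, the cell cycle inhibitor p21, was at 201, 183 and 211 CPM in Parental, 127, 127 and 120 CPM in rABS, 58.2, 53.7 and 55.2 CPM in shCtrl and 50.7, 62.2 and 54.6 CPM in shAPE1. The libraries of both hairpin groups overlapped. GADD45A, a damage-response protein, had log2 -1.99, SESN2, a leucine sensor that restrains mTORC1, -2.69, and BBC3, the killer protein PUMA, -1.45. Of 37 lysosome and autophagy genes 19 fell and 6 rose, with MAP1LC3B, of the autophagosome membrane, at -2.41 and ULK1, the initiating kinase, at -1.75. Of 25 apoptosis regulators 12 fell and 7 rose.

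Sterol synthesis, WNT target and ribosome genes were high. Of 28 cholesterol genes, 22 rose, 13 of them at 2-fold or more, and 1 fell, with a median of 0.86 in shAPE1 and in shCtrl and 0.19 in rABS. SREBF2, their master factor, was at 310, 281 and 300 CPM in Parental, 141, 149 and 144 CPM in rABS, 375, 398 and 390 CPM in shCtrl and 566, 660 and 568 CPM in shAPE1. It was low in rABS and highest in shAPE1, with no overlap between groups (2.01-fold above Parental). LSS, lanosterol synthase, had log2 2.42, MSMO1, a sterol oxidase, 2.11, and SQLE, squalene epoxidase, 1.71. Of 19 WNT and stem cell genes 12 rose and 3 fell, with a median of 0.81, beside 1.63 in rABS and 1.35 in shCtrl. TNFRSF19, a receptor of the tumour necrosis factor family, had log2 3.03, NKD1, a WNT feedback inhibitor, 2.18, DKK1, a secreted one, 1.72, and CD44, a hyaluronan receptor, -1.01. Of 31 MYC and ribosome biogenesis genes 24 rose and 3 fell (median 0.82, with 0.78 in rABS and 0.70 in shCtrl). MYC itself went from 534, 515 and 505 CPM in Parental to 1153, 1208 and 1150 CPM in shAPE1, with 638 to 763 CPM in rABS and shCtrl (2.26-fold). SRM, spermidine synthase, had log2 1.91, and MXD1, a repressor that competes with MYC, -3.25.

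Among 24 heat shock genes, which fold or shield proteins, 17 rose and 3 fell (median 0.64, beside 0.71 in rABS and 0.84 in shCtrl). HSPB1, the small chaperone HSP27, was at 428, 339 and 381 CPM in Parental, 702, 709 and 658 CPM in rABS, 877, 1096 and 1036 CPM in shCtrl and 1686, 1856 and 1600 CPM in shAPE1 (4.48-fold). Each group lay above the one before it. HSPA1A and HSPA1B, inducible HSP70 genes that share nearly all their sequence and whose reads may be split, had log2 2.81 and 2.59. The call of a fall in HSP90AB1, a constitutive HSP90 (log2 -0.15, adjusted p = 0.0463), was lost under upper-quartile scaling (adjusted p = 0.251) and several other settings. Of 33 proteasome genes 12 rose and 9 fell (median 0.05).

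Lineage and surface genes changed on both sides. Of 22 squamous and keratin genes 11 rose and 3 fell (median 1.03, with 0.95 in rABS and 0.75 in shCtrl). SPRR1A and SPRR2A, envelope proteins of stratified epithelium, were at log2 3.71 and 3.84. KRT16, a stress keratin, was at 2.66 and KRT15, a basal keratin, at -1.52. Of 20 gastric and intestinal markers 9 rose and 10 fell (median -0.38). MUC5AC, the mucin of gastric surface cells, was at 588, 569 and 505 CPM in Parental, 155, 125 and 151 CPM in rABS, 86.1, 105 and 111 CPM in shCtrl and 35.7, 32.4 and 32.0 CPM in shAPE1 (16.6-fold lower, adjusted p = 2.62e-25). All survivor libraries were below Parental, and those of shAPE1 were the lowest. MUC2, the intestinal mucin, had log2 -2.33 and CDX2, an intestinal transcription factor, 1.36. Of 26 mesenchymal and matrix genes 12 fell and 7 rose. FN1, fibronectin, was at 1138, 1209 and 1149 CPM in Parental and 2590, 3037 and 2542 CPM in shAPE1 (2.34-fold), VCAN, a matrix proteoglycan, had log2 2.79, MMP7, matrilysin, 2.19, and F3, tissue factor, -2.19. Of 30 adhesion genes 15 fell and 10 rose.

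Metabolic and bile-handling lists had members on both sides. Of 36 glycolysis and hypoxia genes 13 rose and 13 fell, VEGFA, the vessel growth factor, at log2 -2.63 and PGAM1, of lower glycolysis, at 1.39. Of 21 genes of bile acid handling and glucuronidation 7 rose and 8 fell. UGT1A10 and UGT1A6, which share exons and so reads, had log2 -3.27 and -2.72, against 4.78 for UGT2B7, another glucuronosyltransferase. Of 13 proton, bicarbonate and lactate transport genes 2 rose and 1 fell.

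**Figure D5:**
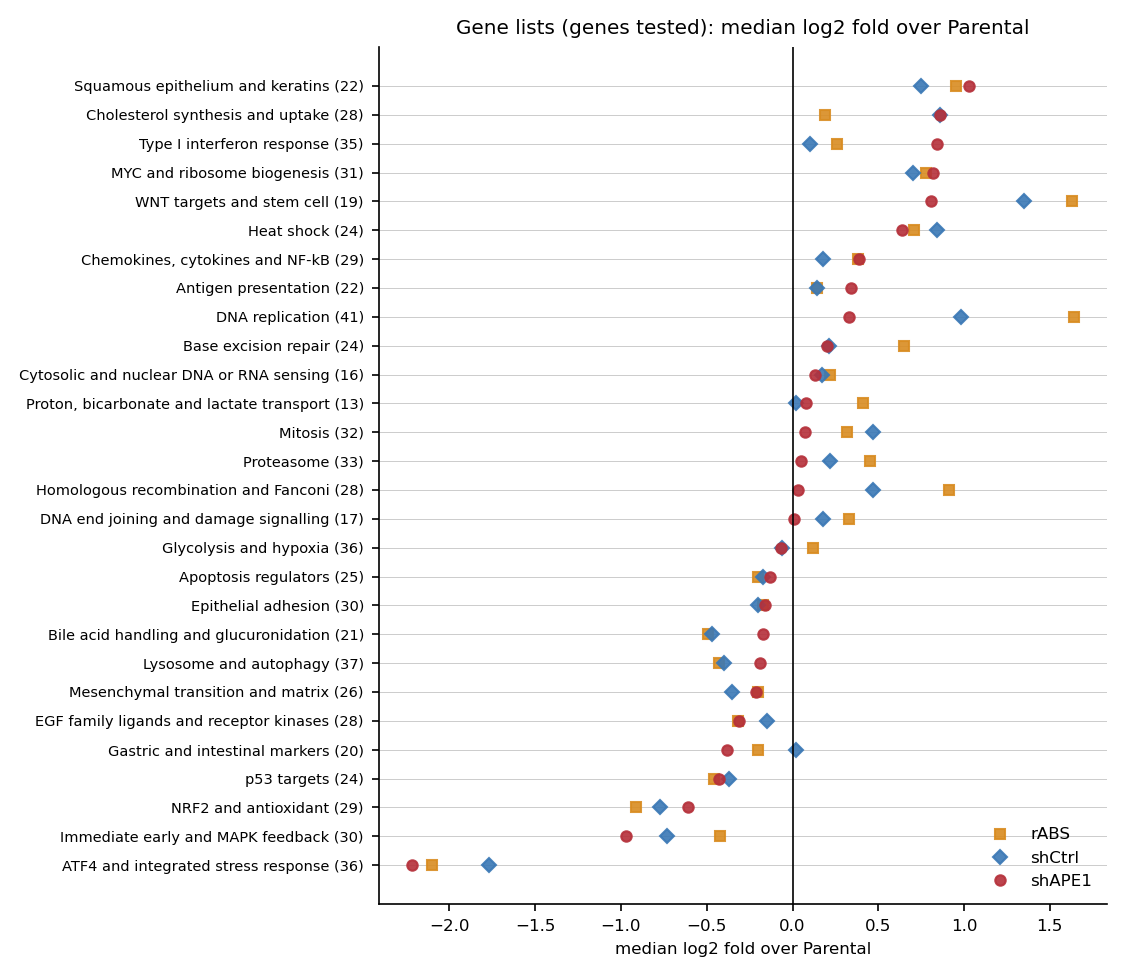
Median log2 difference from Parental of each gene list in rABS, shCtrl and shAPE1, 1 marker per group, with the number of genes tested in parentheses. The integrated stress response is at -2.22 in shAPE1 and the interferon list at 0.84, beside 0.00 for all genes tested.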

How the data were processed

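RNA was poly(A)-selected per the labels' protocols. Per the submitters' processing notes, the tools were Trimmomatic 0.36, STAR 2.5.2b and featureCounts of Subread 1.5.2, with GRCh38. The authors deposited unnormalised counts, 1 row for each Ensembl gene. Which annotation release and strand setting were used is not stated in the labels, so overlapping, antisense and near-identical genes are uncertain. Of 57500 genes listed, 35464 had a count. No column was left unmapped.

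Genes were filtered with filterByExpr (minimum count 10, minimum total 15), scaled by TMM and fitted with edgeR 4.0.16 (quasi-likelihood, robust, 1 term per group, all 12 libraries; limma 3.58.1, R 4.3.3). A gene was called at a Benjamini-Hochberg adjusted p under 0.05 over 15805 genes. Intervals are 95% Wald intervals of the fitted log2 fold change. CPM are TMM-scaled, except for the columnar, fibroblast, leukocyte and endothelial marker values, which use unscaled library totals. Patterns are counts by rule with no test. The fit and its intervals were run on simulated counts for shAPE1 against Parental. That simulation did not cover the pattern rules. UTRs and positions came from GENCODE 29 (56898 genes placed) and promoters from RefSeq (GRCh38.p14, 18961 matched, 11049 of them for genes tested).

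The comparison, lists and motifs were chosen with earlier results of these data known. The text names APEX1, the 8 genes with the largest rise and the 8 with the largest fall at 5 CPM or more without overlap, up to 6 genes per pattern and direction, and up to 5 per list by adjusted p plus the most abundant. Not every gene picked is printed, and 1 result is not reported here. Alternatives were other scalings, filters, tools (DESeq2 1.42.0, limma-voom), margins, folds, a replicate block, the 6 libraries alone and leaving out each library.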

Additional observations from a re-analysis of the deposited data

How the results depend on the processing

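No called value changed direction. Of 640 recomputed list medians, 58 moved by more than the spread between replicates (1 SD), most often under upper-quartile scaling. The medians of the end joining, glycolysis and endothelial marker lists, all within 0.1 of 0, changed sign in 2, 1 and 3 settings. The pattern counts depended on their thresholds. In the order back with the APE1 hairpin, back with either hairpin, and APE1 hairpin alone, the main counts were 52, 38 and 110, the narrower margin gave 8, 1 and 14, and a margin of 2-fold gave 209, 437 and 334. A fold of 1.5 gave 372, 499 and 433, with 2280 still changed (main 987) and 38 crossed (main 4). The wider settings contained every main member, and limma-voom gave 2 crossed genes. Same-numbered Parental and shAPE1 libraries correlated at -0.134 to -0.014 in their deviations from the group mean, and other-numbered ones at -0.093 to 0.11. No shared deviation by number was seen. With 3 libraries per group this cannot show whether they were handled together. The replicate block gave 4016 higher and 4256 lower genes, 1159 and 1162 at 2-fold or more, APEX1 at -3.48, and pattern counts of 52, 36, 973 (still changed), 105 and 3 (crossed). Upper-quartile scaling gave 4631 higher and 3859 lower genes, with the median of all genes at 0.06. Leaving out each library in turn gave APEX1 at -3.62 to -3.40, 3795 to 4189 higher, 3969 to 4391 lower, 1134 to 1278 and 1119 to 1204 at 2-fold or more, and 40 to 54, 29 to 44, 948 to 997, 85 to 118 and 3 to 6 genes in the patterns. Of 4216 values of 211 named genes, 45 in 16 genes changed their call, HSP90AB1 most often. Depth limits low genes: the Parental values of SLC2A3 and INSR rest on 5 counts each, and the shAPE1 value of INHBE on 4.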
